A study of Mus musculus with 3 samples.

Results

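Glycosyltransferases of the sialyl, fucosyl, N-acetylglucosaminyl, N-acetylgalactosaminyl and galactosyl families were examined in stimulated mouse CD8+ T cells. Members were all genes whose symbol in the deposited table began with St3gal, St6gal, St6galnac, St8sia, Fut, Gcnt, Galnt, B3gnt, B3galt, B4galt or Mgat followed by a number. The rule took 74 of 17121 genes, and 52 of these reached 1 CPM, a read count scaled to library size, in at least 1 sample, while 22 did not. The CD8+ T cells came from spleen and lymph nodes of wild-type mice and were kept in culture for 3 days, and there was 1 sample in each of 3 groups. The aged TRM sample came from mice of 18 months and received antibodies to CD3 and CD28 at 1 µg/ml plus 20 ng/ml of IL-15 and 5 ng/ml of TGF-beta, a mixture used to model tissue-resident memory T cells (TRM). The young TRM sample had the same additions and came from mice of 6 weeks. The young TCR sample, also from mice of 6 weeks, had the antibodies alone, which act through the T cell receptor (TCR) and a co-stimulatory receptor. The model is a short culture of lymphoid organ cells, not of cells taken from a barrier tissue, and the sources used here do not say how many mice gave cells to a sample. Aged cells with the antibodies alone were not analysed here.

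Glycosyltransferases work in the secretory pathway and add one sugar at a time to proteins and lipids. One set of enzymes starts chains on serine or threonine (O-glycans), others branch the chains on asparagine (N-glycans), galactosyltransferases and N-acetylglucosaminyltransferases lengthen them, and sialyltransferases and fucosyltransferases cap them. In T cells these steps are known to set the ligands for selectins, galectins and Siglecs, and activated CD8+ T cells are known for a shift from sialylated core 1 O-glycans to branched core 2 O-glycans.

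The 3 samples held between 36021887 and 40385477 reads in the gene table. Values came in 2 numbered columns per sample, which no label explains, so they were summed and treated as repeat measurements. Without replicates no test across mice or cultures was possible. A gene was said to rise or fall where its CPM, with 1 added, differed by at least 2-fold (a log2 ratio of 1) and the 95% counting interval of its ratio excluded 1. That interval covers counting error only. Folds are given without the added 1 and log2 ratios with it. In bulk RNA, fewer cells of a type and less RNA per cell cannot be told apart. The T cell identity of the samples was checked first. Cd8a, a chain of the CD8 coreceptor, had 1632 CPM in aged TRM, 1822 in young TRM and 747 in young TCR. Of the 8 CD8 T cell markers tested, it alone was called between the young samples, and none was called with age. The others went both ways in young TRM against young TCR, such as Cd8b1 (log2 ratio 0.48) and Cd5 (-0.66). Cd3d had 290, 275 and 272 CPM in the order given for Cd8a. The 3 markers of CD4 T cells summed to 29.6, 54.0 and 30.6 CPM in the same order. Of these, Cd4 had 11.6, 12.4 and 10.5 CPM, Zbtb7b 14.3, 8.03 and 18.1 CPM, and Foxp3, a transcription factor of regulatory T cells, 3.71, 33.6 and 1.95 CPM. The B and plasma cell list of 13 markers summed to 32.7 CPM in aged TRM, 21.5 in young TRM and 97.1 in young TCR. The 7 markers of NK and innate lymphoid cells summed to 325, 201 and 172 CPM, again in that order, and the 9 myeloid markers to 116, 144 and 66.8 CPM. The 6 stromal and endothelial markers summed to 55.8, 72.4 and 79.4 CPM. Single genes made up much of some sums. Pecam1 gave 53.5, 70.7 and 76.5 CPM of the stromal and endothelial sum, and Ctss gave 89.2, 102 and 40.5 CPM of the myeloid sum. Il7r gave 203, 109 and 139 CPM of the NK and innate lymphoid sum. Pou2af1 gave 4.53, 2.58 and 40.7 CPM of the B and plasma cell sum. None of the markers was at 0 in all samples.

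Most enzyme classes were carried by a few members in every sample. Levels of different genes were compared in the deposited TPM, which are corrected for transcript length and library size. The median TPM of the 52 members above the filter was 10.7 in aged TRM, 9.96 in young TRM and 9.49 in young TCR, against 23.8, 23.3 and 22.6 TPM for all 11780 genes above it. Members at 1 CPM or more numbered 49 in aged TRM, 46 in young TRM and 47 in young TCR, and 43 reached it in all 3 samples. Levels nearest the filter are given in the CPM per total reads that it used, which differ slightly from the scaled CPM elsewhere. Just above it lay B3gnt7, Galnt14 and Gcnt7, whose highest levels were 1.04, 1.28 and 1.28 CPM. Just below it lay St8sia6, Gcnt3 and B3gnt4, with 0.972, 0.551 and 0.47 CPM. Summed over the 74 members, the TPM was 1237 in aged TRM, 1262 in young TRM and 1096 in young TCR, with columns of 1235 and 1240, 1284 and 1239, and 1081 and 1111 TPM. The columns of the young TCR sample lay below those of both TRM samples.

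The class composition was computed as each member's share of the TPM of its class. Galnt6, Galnt1 and Galnt2 led the 16 enzymes that start O-glycans. Galnt6 held 32.8% of that class in aged TRM, 38.1% in young TRM and 24.9% in young TCR, so that Galnt1, with 32.1%, came first in young TCR only. Among N-glycan branching enzymes the order was Mgat1, Mgat2 and then a late branching enzyme, which was Mgat5 in the TRM samples and in young TCR alike. St3gal4, which sialylates N-acetyllactosamine chains, held 61.2% of the alpha-2,3-sialyltransferases in aged TRM, 64.3% in young TRM and 61.3% in young TCR. Fut8, the enzyme of core fucose on N-glycans, held 51.6%, 52.4% and 50.1% of the fucosyltransferases in the same order, and Fut11 and Fut7 followed. B3gnt2, the main polylactosamine-extending enzyme, held 79.5%, 78.9% and 82.7% of its class. The leading alpha-2,8-sialyltransferase differed between samples. St8sia1 held 68.2% of that class in aged TRM and 70.8% in young TRM, against 42.9% in young TCR, where St8sia4 led with 56.4%.

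**Figure D1:**
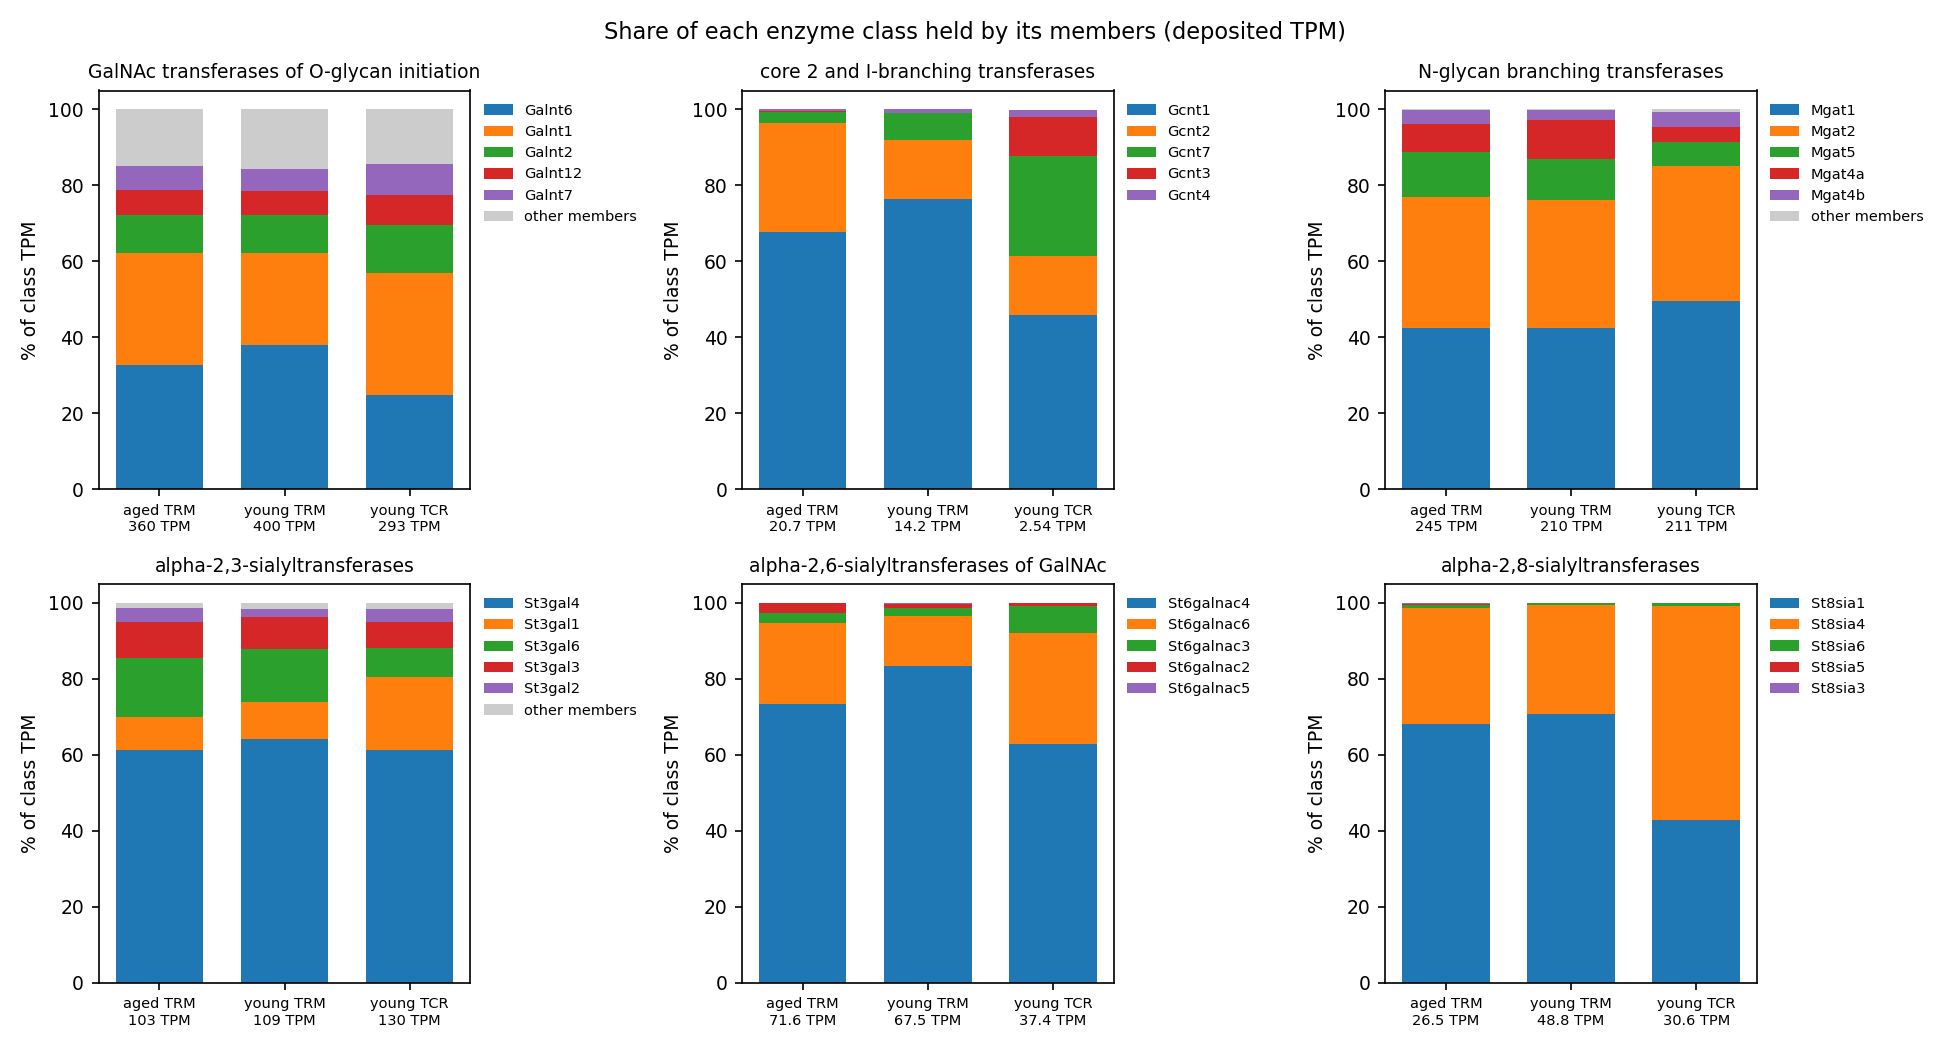
Share of the summed TPM (y axis, percent) that each member held in 6 enzyme classes, in aged TRM, young TRM and young TCR, with the summed TPM of the class under each bar. The bar of the alpha-2,8-sialyltransferases shows St8sia1 at 68.2% and 70.8% in the TRM samples and at 42.9% in young TCR, and the core 2 and I-branching class sums to 20.7, 14.2 and 2.54 TPM.

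The first comparison asked what IL-15 and TGF-beta added to receptor stimulation in young cells. Transcripts of both main core 2 and I-branching enzymes, of 2 enzymes that start O-glycans and of 2 sialyltransferases were higher in young TRM. Among the latter was St6galnac4, which acts on sialylated core 1 O-glycans, while St3gal1, a sialyltransferase of core 1 O-glycans, was lower. Gcnt1, Galnt10, Gcnt2, B3gnt8, St8sia1, Mgat4a, St6galnac4 and Galnt6 rose, and St3gal1 fell. Of 50 members tested, 8 rose (16% of members, against 4.18% of all 11588 genes tested) and 1 fell (2% of members, against 3.60% of all genes), so 18% were called in either direction, against 7.78%. Their median log2 ratio was 0.07, against 0.02 for all genes tested, and 29 of the 50 lay above 0 and 21 below, against 51.9% and 48.1% of all genes tested. Columns of both samples did not overlap for 25 members that were higher and 21 that were lower in young TRM, against 41.4% and 37.5% of all genes tested. Gcnt2 and B3gnt8 were under 1 CPM in young TCR and so entered the tested set through young TRM alone, where they were high.

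Transcripts of the branching enzyme Gcnt1 (gene ID 14537, chromosome 19, positions 17326141 to 17372844 of GRCm38.p6) had the largest log2 ratio among the members tested, 2.84 with 1 CPM added, while B3gnt8 had a larger fold without it. Gcnt1 makes core 2 O-glycans, on which selectin ligands of T cells are built. It had 32.0 CPM in aged TRM, 25.6 in young TRM and 2.71 in young TCR. Its columns were 25.8 and 25.4 CPM in young TRM and 2.36 and 3.07 CPM in young TCR, so that both TRM samples stood well above the third. The ratio of young TRM to young TCR was 9.42 (interval 7.72 to 11.6). Gcnt2 (gene ID 14538, chromosome 13, 40859768 to 40960892), the enzyme of I-branches on polylactosamine, had 11.8 CPM in aged TRM, 4.48 in young TRM and 0.814 in young TCR. All 3 samples differed here, and young TRM was 5.51-fold above young TCR (3.77 to 8.28). Gcnt7, the other member above the filter, had 0.787, 1.31 and 0.863 CPM and passed no threshold, and its span lies inside that of the more highly expressed gene Rtf2. Gcnt3, a mucin-type core 2 enzyme under the filter, had 1 read in aged TRM, 1 in young TRM and 22 in young TCR.

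Among the enzymes that start O-glycans, 2 of 11 tested rose and none fell, against 4.18% and 3.60% of all genes tested. These enzymes attach N-acetylgalactosamine to serine or threonine, and they differ in the peptides they prefer. Galnt10 (gene ID 171212, chromosome 11, 57645442 to 57787514) had 36.0 CPM in aged TRM, 73.1 in young TRM and 19.5 in young TCR, a ratio of young TRM to young TCR of 3.74 (3.45 to 4.05). Galnt6 (gene ID 207839, chromosome 15, 100689915 to 100729376) had 241, 324 and 153 CPM in the same order, and the ratio was 2.11 (2.05 to 2.18). Its columns lay at 323 and 324 CPM in young TRM and at 154 and 152 CPM in young TCR, with no overlap. The other 9 had log2 ratios between -0.69 and 0.41. The lowest was that of Galnt14, at 0.397 CPM in young TRM and 1.26 CPM in young TCR, next to Galnt3 with 12.8 and 21.0 CPM. Galnt1 differed least of the abundant members, with 190 CPM in young TRM and 183 CPM in young TCR and overlapping columns. Galnt4 lies wholly within the span of Poc1b, and Galnt6 overlaps the RNA gene Galnt6os, which the table does not list. The sources used here do not say how reads that fit both genes of such a pair were assigned, or whether strand was used.

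Of the 6 N-glycan branching enzymes tested, 1 rose and none fell, against 4.18% and 3.60% of all genes tested. Mgat4a, which adds a branch to the alpha-3 arm of the N-glycan core, rose to 78.8 CPM in young TRM, against 31.0 CPM in young TCR (2.55-fold, 2.38 to 2.72), and had 64.0 CPM in aged TRM. Mgat5, whose branch carries galectin-binding polylactosamine, had 122 CPM in aged TRM, 99.4 in young TRM and 57.3 in young TCR, and its log2 ratio of 0.78 between the young samples did not reach the threshold. Mgat4b, the other enzyme of the same branch as Mgat4a, had 7.12 CPM in young TRM and 10.2 in young TCR (log2 ratio -0.46). Mgat3, which adds the bisecting residue that blocks further branching, had 0.851 CPM in young TRM and 2.64 in young TCR, with a log2 ratio of -0.98, just inside the threshold, and was past it under scaling by totals (-1.01), with a pseudocount of 0.5 CPM (-1.22) and with column 2 alone (-1.08). The first steps, Mgat1 and Mgat2, had log2 ratios of -0.21 and -0.08.

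Of the chain-lengthening enzymes tested, B3gnt8 alone was called. None of the 6 beta-1,4-galactosyltransferases tested passed the threshold. B4galt7, which adds the first galactose of the glycosaminoglycan linker, had 38.4 CPM in young TRM and 20.4 CPM in young TCR (log2 ratio 0.88), and B4galt5, a lactosylceramide synthase, had 152 and 229 CPM (-0.59). B4galt1, which makes N-acetyllactosamine, had 230 CPM in young TRM and 165 CPM in young TCR (0.48). Those 3 genes led the class by TPM in all 3 samples. Of the N-acetylglucosamine-adding enzymes, B3gnt8, which extends polylactosamine on N-glycans, rose to 2.55 CPM in young TRM, against 0.222 CPM in young TCR, where it had 9 reads. The ratio was 11.5 (5.8 to 26.0), and the aged TRM sample had 2.34 CPM. B3gnt2 had 107 CPM in young TRM and 117 CPM in young TCR (-0.13). B3galt5, which makes type 1 chains, had 0.397 CPM in young TRM and 1.46 CPM in young TCR. Its log2 ratio of -0.81 went past the threshold with a pseudocount of 0.5 CPM (-1.12) and with column 2 alone (-1.03).

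Among the sialyltransferases tested, 2 rose and 1 fell, against 4.18% and 3.60% of all genes tested. Those tested were 6 of the alpha-2,3 class, 1 of the alpha-2,6 class of galactose, 3 of the alpha-2,6 class of N-acetylgalactosamine and 2 of the alpha-2,8 class. Of the alpha-2,3 class, St3gal1 (gene ID 20442, chromosome 15, 67102875 to 67176946), an enzyme that caps core 1 O-glycans and so competes with core 2 branching, fell. It had 26.5 CPM in aged TRM, 30.9 in young TRM and 73.4 in young TCR. Columns reached at most 31.7 CPM in young TRM and at least 70.4 CPM in young TCR, and young TRM was 2.37-fold lower (2.21 to 2.55). St3gal2 had 7.49 CPM in young TRM and 12.5 CPM in young TCR (log2 ratio -0.67), while St3gal6, which acts on N-acetyllactosamine, had 18.7 and 12.5 CPM (0.54). St3gal4 had 74.6 CPM in young TRM and 84.5 CPM in young TCR (-0.18). St6galnac4 (gene ID 20448, chromosome 2, 32587078 to 32599696), which adds a second sialic acid to core 1 O-glycans that already carry one, rose to 108 CPM in young TRM, against 44.7 CPM in young TCR (2.41-fold, 2.28 to 2.55), and had 97.5 CPM in aged TRM. St6galnac6, a ganglioside sialyltransferase whose gene starts 12 bases beyond the end of St6galnac4, had 10.7 CPM in young TRM and 13.1 CPM in young TCR (-0.27).

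St8sia1 (gene ID 20449, chromosome 6, 142821541 to 142989528), the synthase of ganglioside GD3, rose as well. It had 79.5 CPM in aged TRM, 156 in young TRM and 58.4 in young TCR, and young TRM was 2.67-fold above young TCR (2.54 to 2.80). St8sia4, a polysialic acid polymerase, had 21.5, 38.7 and 46.6 CPM in the same order, and St6gal1 had 44.6 CPM in young TRM and 44.3 CPM in young TCR, with overlapping columns and a log2 ratio of 0.01. None of the 4 fucosyltransferases tested passed the threshold. Fut7, which completes the sialyl Lewis x ligand of selectins, had 9.28 CPM in young TRM and 5.65 CPM in young TCR (log2 ratio 0.63). Fut4, an enzyme of Lewis x, had 0.795 CPM in young TRM and 1.58 CPM in young TCR (-0.52), and Fut8 had a log2 ratio of 0.37. Marker lists of other cells moved as well in this comparison. Of the B and plasma cell markers tested, 9 of 10 fell in young TRM, and the list summed to 21.5 CPM in young TRM and 97.1 CPM in young TCR. Of the 7 NK and innate lymphoid markers 5 rose, and of the 6 myeloid markers tested 2 rose and 1 fell. Over all genes tested, 4.18% rose and 3.60% fell. Of the CD4 T cell markers Foxp3 rose and Zbtb7b fell. The part of these cells in the members' values was not tested.

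**Figure D2:**
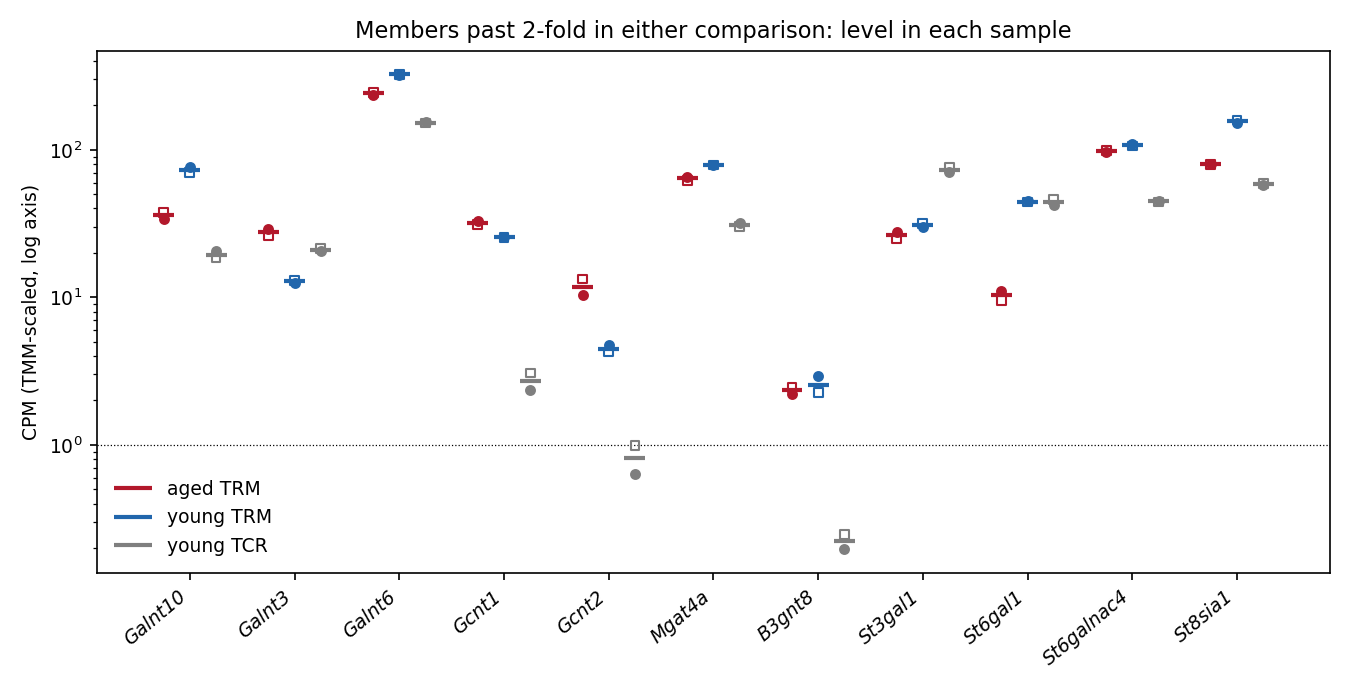
Level in CPM (log axis) of the 11 members past the threshold in at least 1 comparison, in aged TRM, young TRM and young TCR, where the bar is the sample and the circle and square are its 2 deposited columns. St6gal1 stands near 44 CPM in both young samples and at 10.3 CPM in aged TRM, and Gcnt1 at 32.0 and 25.6 CPM in the TRM samples against 2.71 CPM in young TCR; the dotted line is 1 CPM.

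Promoter windows were searched for members that passed the threshold in either comparison, with cytokines or with age. RefSeq windows of GRCm38.p6, reaching from 250 bases before to 50 bases after a transcript start, were found for 55 of the 74 members and for 10 of the 11 that passed the threshold in either comparison (18 windows, since some genes have several starts). The member past the threshold without a window was St3gal1, which fell with cytokines. Which start is used in these cells cannot be read from values summed over a gene. The windows were searched on both strands for TTCNNNGAA, a form bound by STAT factors, for CAGACA, which holds a SMAD-binding core, and for GGTGTGA, a T-box half-site. TTCNNNGAA was in 1 of the 18 windows and in 8.3% of all 32851 promoter windows. CAGACA was in 5 of the 18 windows (27.8%) and in 21% of all windows, and GGTGTGA was in none of the 18 and in 3.98% of all. Over the 81 windows of members, the shares of the motifs were 6.17%, 17.3% and 2.47% in the order searched. A match is only a run of letters. The 6 windows with a match are printed 5′ to 3′, with the matched letters, read on either strand, in capitals, and no matches overlap. All capitals mark CAGACA or its reverse complement, except in Gcnt2, where they mark TTCNNNGAA.
B3gnt8 (chr7:25627374-25627673, plus strand): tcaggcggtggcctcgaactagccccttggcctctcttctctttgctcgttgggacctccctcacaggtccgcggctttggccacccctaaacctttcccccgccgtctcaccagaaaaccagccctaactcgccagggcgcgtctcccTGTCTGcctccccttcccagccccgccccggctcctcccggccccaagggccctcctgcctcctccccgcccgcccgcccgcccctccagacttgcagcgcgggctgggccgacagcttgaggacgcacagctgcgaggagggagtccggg
Galnt6 (chr15:100720428-100720727, minus strand): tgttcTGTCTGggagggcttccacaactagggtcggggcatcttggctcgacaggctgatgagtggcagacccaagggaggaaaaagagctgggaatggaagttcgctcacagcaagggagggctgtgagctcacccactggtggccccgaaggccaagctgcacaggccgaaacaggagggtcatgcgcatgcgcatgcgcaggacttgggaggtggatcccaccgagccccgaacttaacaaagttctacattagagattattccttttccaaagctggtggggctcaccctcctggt
Gcnt1 (chr19:17339456-17339755, minus strand): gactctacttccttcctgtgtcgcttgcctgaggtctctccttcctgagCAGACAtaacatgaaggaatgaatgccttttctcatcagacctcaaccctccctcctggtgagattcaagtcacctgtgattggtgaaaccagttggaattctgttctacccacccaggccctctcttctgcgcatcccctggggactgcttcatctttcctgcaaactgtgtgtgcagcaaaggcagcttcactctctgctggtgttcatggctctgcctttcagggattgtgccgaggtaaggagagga
Gcnt1 (chr19:17372795-17373094, minus strand): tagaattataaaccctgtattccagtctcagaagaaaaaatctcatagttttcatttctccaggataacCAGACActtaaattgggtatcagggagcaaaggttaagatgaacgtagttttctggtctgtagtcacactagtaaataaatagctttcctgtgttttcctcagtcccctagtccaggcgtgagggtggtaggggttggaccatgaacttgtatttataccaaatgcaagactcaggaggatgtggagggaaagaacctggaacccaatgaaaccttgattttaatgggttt
Gcnt2 (chr13:40886508-40886807, plus strand): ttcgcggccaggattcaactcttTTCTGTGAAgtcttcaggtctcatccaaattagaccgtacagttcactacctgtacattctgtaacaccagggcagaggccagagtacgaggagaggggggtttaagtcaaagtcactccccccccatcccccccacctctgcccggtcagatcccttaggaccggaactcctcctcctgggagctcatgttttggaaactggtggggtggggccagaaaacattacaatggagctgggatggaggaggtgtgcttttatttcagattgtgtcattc
St8sia1 (chr6:142964403-142964702, minus strand): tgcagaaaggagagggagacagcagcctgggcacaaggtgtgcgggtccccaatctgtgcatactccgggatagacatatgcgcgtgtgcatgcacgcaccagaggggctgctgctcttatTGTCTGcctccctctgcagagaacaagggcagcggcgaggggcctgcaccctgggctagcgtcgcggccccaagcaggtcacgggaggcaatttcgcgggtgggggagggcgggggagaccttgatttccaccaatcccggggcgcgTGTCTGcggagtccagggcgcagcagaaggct

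The St8sia1 window held 2 matches to CAGACA. The B3gnt8 window, the printed Galnt6 window and both printed Gcnt1 windows held 1 each. The other windows of Galnt6, Gcnt1 and Gcnt2, not printed here, held no match. No match was found in the windows of Galnt10, Mgat4a, St6galnac4, Galnt3 or St6gal1. The median GC content was 57.8% over the 18 windows, 59.7% over 81 windows of members and 52.7% over all windows.

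The second comparison asked how CD8+ T cells of 18 months differed from those of 6 weeks under the same cytokines. St6gal1 and Galnt10 fell and Gcnt2 and Galnt3 rose in aged TRM, and the rest of the 50 members tested stayed within the threshold. The 2 that rose were 4% of members, against 2.25% of all 11575 genes tested, and the 2 that fell were likewise 4%, against 1.15%, so 8% were called in either direction, against 3.40%. The median log2 ratio of members was -0.06, against -0.01 for all genes tested, and 23 of the 50 lay above 0 and 27 below, against 49.2% and 50.8% of all genes tested. For 17 members all columns were higher in aged TRM and for 22 all were lower, against 35.9% and 38.1% of all genes tested. This comparison shares the young TRM sample with the first, so a value that was high in that sample enters both.

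St6gal1 (gene ID 20440, chromosome 16, 23224729 to 23360350) had the log2 ratio of largest size among the members tested. It encodes the main enzyme that adds alpha-2,6-linked sialic acid to N-glycans, the cap read by the B cell Siglec CD22. It had 10.3 CPM in aged TRM, 44.6 in young TRM and 44.3 in young TCR. Its columns were 11.1 and 9.52 CPM in aged TRM and 44.9 and 44.3 CPM in young TRM, so both young samples lay together and the aged one far below them. Aged TRM was 4.31-fold lower than young TRM (3.87 to 4.81), a log2 ratio of -2.01, and the call held in all 10 alternatives tried. St6gal2, the only other member of the class, had 0 reads in aged TRM, 1 in young TRM and 1 in young TCR, so St6gal1 was the one enzyme of this linkage detected above the filter. B cells express St6gal1 too. The 13 B and plasma cell markers summed to 32.7 CPM in aged TRM and 21.5 CPM in young TRM, and the part of such cells in the St6gal1 values was not tested.

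Galnt10, which stood highest in young TRM, had 36.0 CPM in aged TRM and 73.1 CPM in young TRM and was 2.03-fold lower (1.90 to 2.17). Its log2 ratio lay at the threshold and became -0.96 under scaling by totals, -0.95 with the deposited TPM, -0.93 with a pseudocount of 5 CPM and -0.89 with column 2 alone. Galnt3 (gene ID 14425, chromosome 2, 66082766 to 66125056), another initiating enzyme, rose to 27.7 CPM in aged TRM, against 12.8 CPM in young TRM, and was 2.16-fold higher (1.94 to 2.42), with 21.0 CPM in young TCR. Gcnt2 rose to 11.8 CPM in aged TRM, against 4.48 CPM in young TRM, a ratio of 2.63 (2.19 to 3.17). Its columns were 10.3 and 13.3 CPM in aged TRM and 4.77 and 4.26 CPM in young TRM. Galnt3 was under the threshold with column 2 alone (0.95) and with a pseudocount of 5 CPM (0.88), and Gcnt2 with column 1 alone (0.97) and with a pseudocount of 5 CPM (0.82). Neither passed 2-fold in all 4 pairings of columns.

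Several members lay close to the threshold. St8sia1 had 79.5 CPM in aged TRM and 156 CPM in young TRM, a log2 ratio of -0.96 that reached -1.01 with column 2 alone, and St8sia4 had 21.5 and 38.7 CPM (-0.82). Both alpha-2,8-sialyltransferases above the filter were lower in aged TRM in every column without passing. All columns were lower for 38.1% of all genes tested. St8sia6, just under the filter, had 0.763 CPM in aged TRM and 0.993 CPM in young TRM with overlapping columns, and the class summed to 26.5 TPM in aged TRM and 48.8 TPM in young TRM. B4galt4 had 1.53 CPM in aged TRM and 3.97 CPM in young TRM (-0.98), and B4galt2 had 3.32 and 1.33 CPM (0.89). Fut4 had 2.21 CPM in aged TRM and 0.795 CPM in young TRM (0.84), while Fut7 had 6.35 and 9.28 CPM (-0.48). Gcnt1 kept a level of 32.0 CPM in aged TRM and 25.6 CPM in young TRM (0.31). Of the N-glycan branching enzymes, 5 of 6 had log2 ratios above 0, Mgat5 among them with 122 CPM in aged TRM and 99.4 CPM in young TRM (0.30), and the exception was Mgat4a with 64.0 and 78.8 CPM (-0.30). None of the 6 alpha-2,3-sialyltransferases went beyond log2 ratios of -0.22 and 0.40. Among markers of other cells tested with age, Foxp3 fell, 3 of 9 B and plasma cell markers rose, and none of the 7 NK and innate lymphoid or 6 myeloid markers was called. Over all genes tested, 2.25% rose and 1.15% fell. The NK and innate lymphoid list summed to 325 CPM in aged TRM and 201 CPM in young TRM, most of it from Il7r and Kit, while its median log2 ratio was -0.14. The part of these cells in the members' values was not tested.

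**Figure D3:**
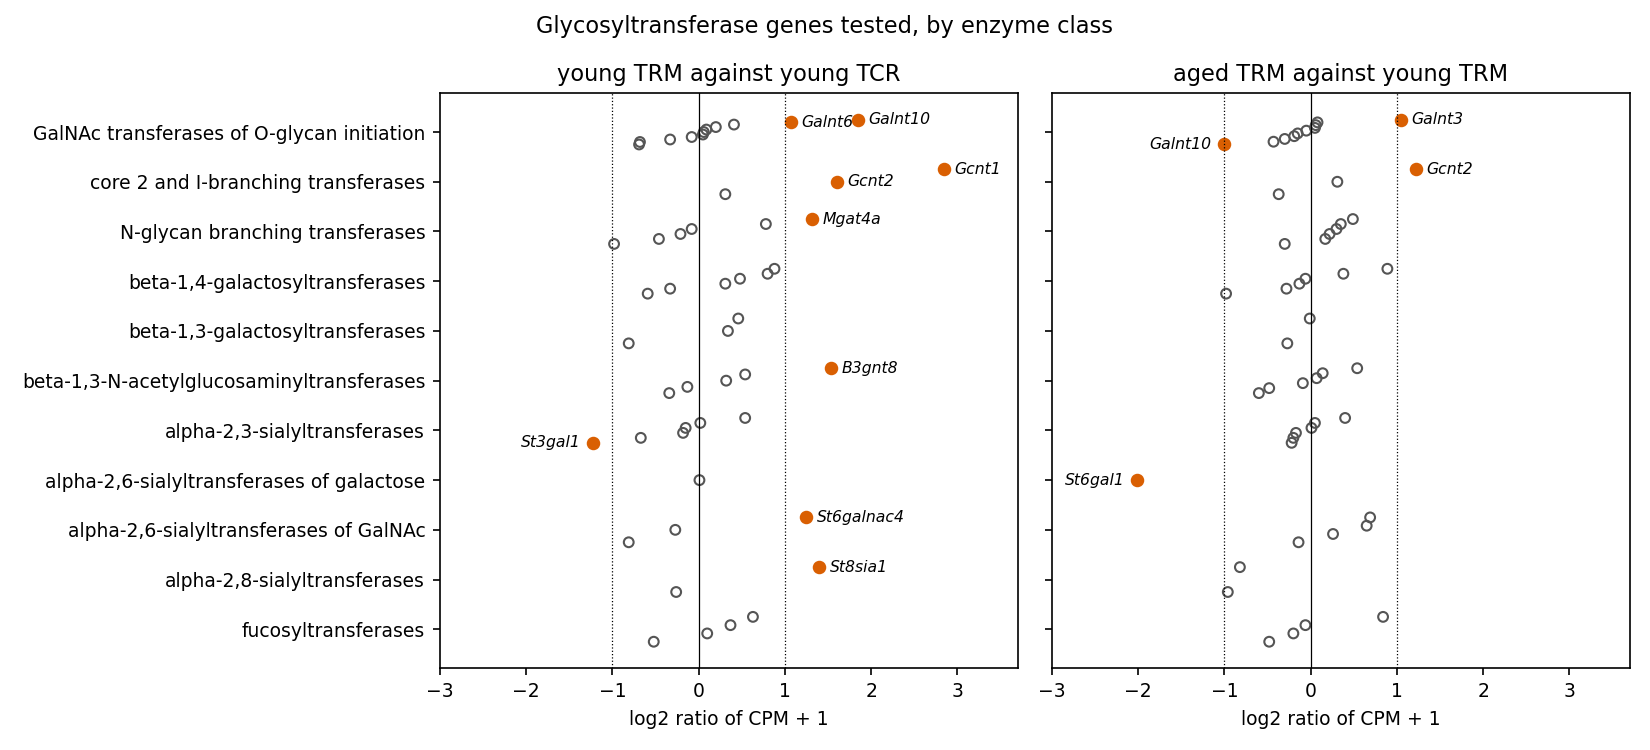
Log2 ratio of CPM + 1 (x axis) of each member tested, by enzyme class, for young TRM against young TCR (left) and aged TRM against young TRM (right). Filled points are members past the threshold, namely 9 on the left and 4 on the right, and the dotted lines mark log2 ratios of -1 and 1.

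Set beside young TCR, the aged TRM sample differs in both age and cytokines, so only values are given. St6gal1 had 10.3 CPM in aged TRM and 44.3 CPM in young TCR, and no other member with at least 10 CPM in young TCR had a lower ratio of aged TRM to young TCR. St3gal1 had 26.5 CPM in aged TRM and 73.4 CPM in young TCR. Gcnt1 and Gcnt2 had 32.0 and 11.8 CPM in aged TRM, against 2.71 and 0.814 CPM in young TCR. The core 2 and I-branching class summed to 20.7 TPM in aged TRM, 14.2 TPM in young TRM and 2.54 TPM in young TCR, and the column sums of the 3 samples did not overlap.

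Genes that feed, precede or read these enzymes were taken from lists of the pathway. In the first comparison 1 of the 8 genes of sialic acid supply rose and none fell, against 4.18% and 3.60% of all genes tested. That gene was Gne, which catalyses the first steps of sialic acid synthesis and limits its rate. It had 83.4 CPM in aged TRM, 82.6 in young TRM and 33.3 in young TCR, and young TRM was 2.48-fold above young TCR (2.32 to 2.65). Cmah, which hydroxylates the activated sugar, had 177, 245 and 320 CPM in the same order, with log2 ratios of -0.38 between the young samples and -0.46 between aged and young TRM. The other lists of supply and assembly held no called gene in either comparison, namely 2 sialidases, 10 genes of fucose supply and O-fucosylation, 13 of UDP-sugar supply, 10 other glycosyltransferases, 25 of N-glycan assembly and trimming and 3 glycan sulfotransferases. Within them Uap1, which makes UDP-N-acetylglucosamine, had 65.6 CPM in young TRM and 40.9 CPM in young TCR (0.67), and Chst2, a sulfotransferase of selectin ligands, had 16.2 and 26.6 CPM (-0.68). The median log2 ratio of the 25 N-glycan assembly genes was -0.04 in the first comparison and 0.11 in the age comparison.

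Carriers and readers of the glycans came next. None of the glycan carriers and selectins tested was called in the first comparison. Selp, which encodes P-selectin, fell with age. It had 1.43 CPM in aged TRM, 6.50 in young TRM and 11.9 in young TCR, and was 4.56-fold lower in aged than in young TRM (3.40 to 6.19). Selplg, the PSGL-1 scaffold that core 2 enzymes and Fut7 modify, had 533 CPM in aged TRM, 567 in young TRM and 483 in young TCR, and Spn, the O-glycosylated protein CD43, had 563, 528 and 446 CPM. Cd44, a glycoprotein that is higher on memory T cells, had 676, 415 and 241 CPM, with log2 ratios of 0.70 with age and 0.78 with cytokines. Of 9 galectins and Siglecs tested, 2 fell in young TRM against young TCR, beside 3.60% of all genes tested, and none was called with age. Those that fell were Cd22, with 0.823 CPM in young TRM and 6.07 CPM in young TCR, and Siglecg, with 0.482 and 2.07 CPM. Both are known from B cells, Cd22 also stands in the B and plasma cell list, and 9 of the 10 markers of that list tested fell in this comparison. Their part in the result was not tested. Lgals9, which encodes galectin 9, had 113 CPM in aged TRM, 166 in young TRM and 94.8 in young TCR.

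**Figure D4:**
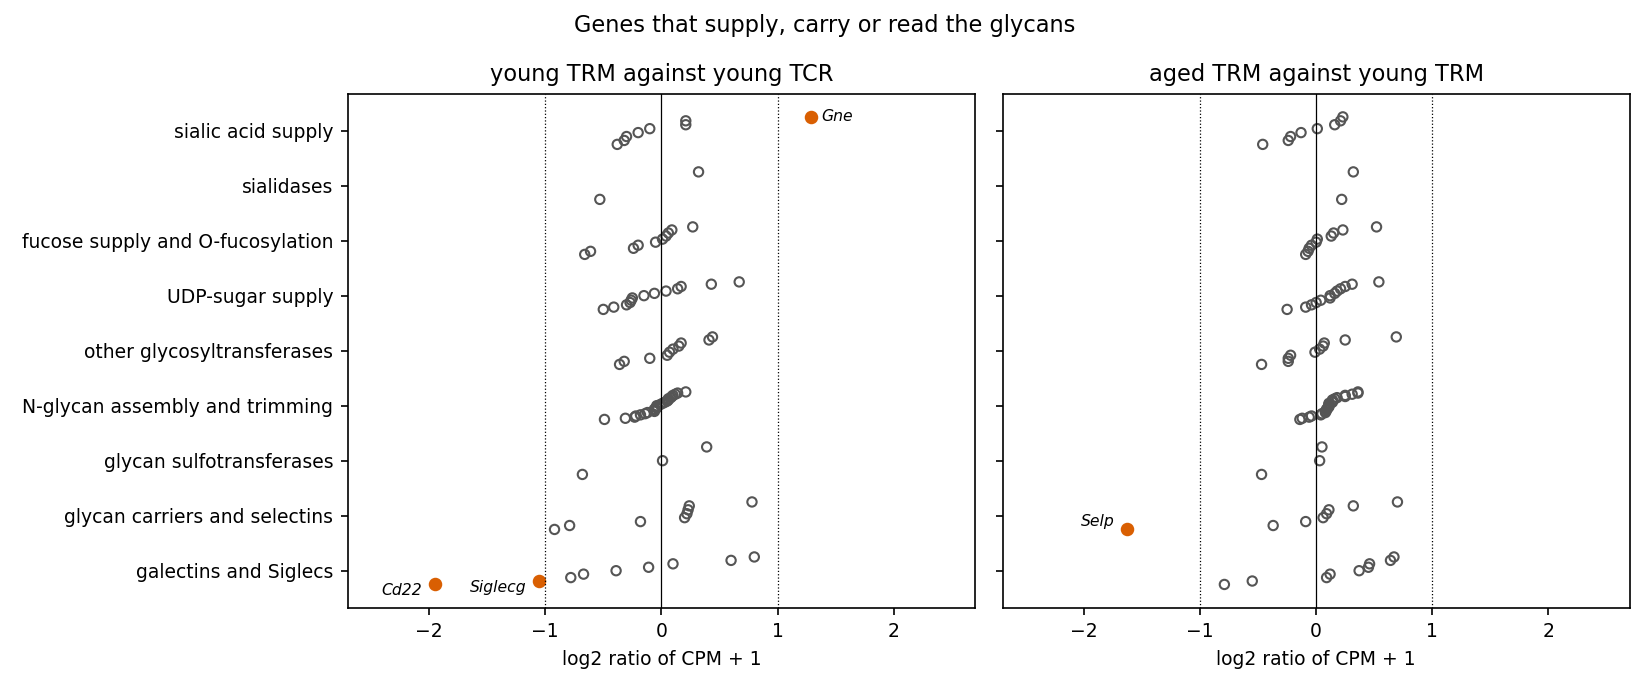
Log2 ratio of CPM + 1 (x axis) of the pathway genes tested that are reported here, by list, for young TRM against young TCR (left) and aged TRM against young TRM (right), with called genes filled and named. Gne at 1.29 and the B cell Siglecs Cd22 and Siglecg pass on the left, and Selp at -1.63 on the right.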

How the data were processed

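Per the labels, RNA of 3 samples was column-purified and read on a HiSeq. The submitters' processing notes name Bowtie, without a version, and GRCm38 (mm10). The counting program, its annotation, its use of strand and its handling of reads that fit several genes are stated in none of the sources used here. The authors deposited, in each numbered column, estimated counts per gene, which are not always whole, and TPM, which they had divided by transcript length. These estimated counts were rounded and the 2 columns of a sample summed, and 24 other value columns were not used. Libraries were scaled by TMM factors (edgeR 4.0.16 in R 4.3.3: 1.01 for aged TRM, 0.978 for young TRM, 1.02 for young TCR). Ratios, 95% Clopper-Pearson intervals and calls were computed over the whole table with scipy 1.17.1, pandas 2.3.3 and numpy 2.4.6 (Python 3.11.15), for genes of at least 1 CPM in either library compared, with a pseudocount of 1 CPM. The filter that chose members used CPM per total reads, and TMM scaling left the same number, 52. The call was tested on simulated data with known changes, drawn with counting error only. Spread between columns, cultures or mice was not part of that simulation, so it cannot show how far the calls hold across samples. Between the columns of a sample, over genes with 50 reads or more, the variance was 2.31 to 3.04 times that of counting, so intervals are too narrow. A fixed floor of 3 reads corresponds to 0.0738 to 0.0851 CPM at these depths, and no call used it. DESeq2 1.42.0 gave size factors for an alternative. Genes named were the called members, the 3 members with most TPM in each class, a fixed list of members, those nearest the filter and, of the pathway lists, called genes and those with large ratios, though not every gene that this takes is reported. B4galt2, B4galt4, Cd44, Selplg, Spn, St3gal2, St3gal5, St6galnac2, Galnt14, Mgat4b and the marker genes were named after their values were seen. The members, lists and settings were chosen with earlier results of these data known. Of the listed genes, Fuk and Gfus are other names of Fcsk and Tsta3. Some listed genes are not reported here.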

Additional observations from a re-analysis of the deposited data

How the results depend on the processing

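No paired analysis was possible because each group had 1 sample, and no sample could be left out. The 8 members that rose with cytokines were the same under scaling by totals or by DESeq2 size factors, a pseudocount of 0.5 CPM, no filter, the deposited TPM, either column alone and 2-fold in all 4 pairings of columns, and 6 remained with a pseudocount of 5 CPM or a filter of 10 CPM, where Gcnt2 and B3gnt8 were lost. St3gal1 fell under every one of these settings, with 2 members falling in all when scaled by totals (Mgat3 added) and 3 with a pseudocount of 0.5 CPM or column 2 alone (Mgat3 and B3galt5 added). In the age comparison, members that rose numbered 0 with a pseudocount of 5 CPM, 4 with one of 0.5 CPM (B4galt2 and Fut4 added) and 0 in all 4 pairings. They numbered 1 with column 1 alone (Gcnt2 lost) and 3 with column 2 alone (Galnt3 lost, B4galt2 and St6galnac2 added). Those that fell numbered 1 with totals, a pseudocount of 5 CPM, the TPM and all 4 pairings, where St6gal1 alone was left. They numbered 3 with a pseudocount of 0.5 CPM (B4galt4 added) and 2 with column 2 alone, where Galnt10 was lost and St8sia1 added. The cause was not tested, other than that a larger pseudocount shrinks the ratios of weakly expressed genes. The members' median with cytokines was 0.02 with totals, 0.04 without the filter and 0.17 with the TPM, and with age it was 0.00 without the filter and -0.12 with column 1 alone. No scaling moved the median of all genes by over 0.1. Over all genes, 484 rose and 417 fell with cytokines, against 296 and 190 with a pseudocount of 5 CPM and 349 and 234 with a filter of 10 CPM. With age 260 rose and 133 fell, against 87 and 62 and against 123 and 91. Of 684 single values of 38 named members, 643 stayed, 12 lost and 7 gained a call, and 22 moved without one. Members with few reads, such as B3gnt8, are limited by depth.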

Other observations

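Of the glycolipid enzymes given in this paragraph, St8sia1 alone passed the threshold. It did so only with cytokines, where 4.18% of all genes tested rose, and its log2 ratio with age was -0.96. St8sia1, the GD3 synthase, had 79.5 CPM in aged TRM, 156 in young TRM and 58.4 in young TCR, while St3gal5, the GM3 synthase whose product it extends, had 1.53, 1.84 and 2.15 CPM in that order. B4galnt1, which turns GM3 and GD3 into complex gangliosides, had 339, 326 and 418 CPM, and Ugcg, which makes the glucosylceramide at the start of the pathway, had 196, 233 and 290 CPM. B3gnt5, which opens the lacto-series of glycolipids, had 8.78 CPM in aged TRM, 13.9 in young TRM and 9.20 in young TCR, with log2 ratios of -0.60 with age and 0.54 with cytokines. B3galt4, which adds galactose to gangliosides, had 6.03, 7.46 and 5.16 CPM.

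St6galnac4 and St6galnac6 lie 12 bases apart on chromosome 2 and had log2 ratios of opposite sign in both comparisons. St6galnac4 had 97.5 CPM in aged TRM and 108 CPM in young TRM (log2 ratio -0.14), and St6galnac6 had 17.8 and 10.7 CPM (0.69). With cytokines their log2 ratios were 1.25 and -0.27. Only the ratio of St6galnac4 with cytokines passed the threshold. Both genes overlap the RNA gene Gm52551, for which no values are given, and how reads that fit both were assigned is not stated.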
